A study of Mus musculus with 9 samples.

Results

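The dense-core granules of endocrine cells are built from granins and hold the enzymes that turn prohormones into active peptides. Expression of 10 genes of this machinery was examined in 3 cell populations sorted from mouse small intestine: the granins Chga, Chgb, Scg2 and Scg3, the 7B2 chaperone Scg5, the proprotein convertases Pcsk1 and Pcsk2, the convertase inhibitor Pcsk1n, the carboxypeptidase Cpe and the amidating enzyme Pam. The genes were taken by symbol from 2 deposited tables of normalized counts, and all 10 were present among the 35013 gene symbols of each table.

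The populations were CD24negTomato+, CD24+Tomato+ and Tomatoneg primary epithelial cells from mice of 4 to 6 weeks, with 3 replicate libraries each and 9 libraries in all. Every library came from mice of the same genotype, in which Neurog3Cre acts on floxed FoxO1 alleles and on a Rosa26tdtomato reporter (NFKO mice), and no treatment was given. Tomato therefore marks cells in which Cre has acted and their descendants. Tomatoneg cells are the cells without Tomato in the epithelial preparation from mice of this genotype, and an anti-CD24 stain divided the Tomato+ cells. All 3 populations come from mice carrying the FoxO1 deletion in the Neurog3 lineage, and libraries from mice with intact FoxO1 were not analysed here, so the effects of lineage and of FoxO1 loss cannot be told apart. The sources do not say how many mice went into a library, so P values measure the spread between these libraries.

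Granins are acidic secretory proteins that aggregate in the trans-Golgi network and help to form the granule. Within the granule, prohormones are cut at paired basic residues by the convertases PC1/3 (encoded by Pcsk1) and PC2 (Pcsk2), the exposed basic residues are trimmed by carboxypeptidase E, and peptides that end in glycine are amidated by PAM. In the intestinal epithelium this machinery belongs to enteroendocrine cells, which are scattered among enterocytes, goblet cells and Paneth cells. In bulk libraries such as these, fewer cells of a type and less RNA per cell cannot be told apart.

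The estimated depth was 29962630 to 37133889 reads in CD24negTomato+ libraries, 27723742 to 39234462 in CD24+Tomato+ libraries and 19158348 to 24368832 in Tomatoneg libraries, and a normalized count of 2.10 to 4.29 stands for 3 reads, a limit that covers counting error only. Tomatoneg replicate 1 had 13025 genes above 0, and the other libraries had 15644 to 18530. FoxO1 transcripts (Foxo1) were present in every library, with 424 to 748 normalized counts in Tomatoneg cells, 274 to 467 in CD24negTomato+ and 193 to 319 in CD24+Tomato+ cells. Foxo1 did not pass the test in either comparison (adjusted P = 0.427 in CD24negTomato+ and 0.0579 in CD24+Tomato+ cells), and a fit blocked on the replicate number gave 0.0219 for the latter. Each population held markers of several cell types, and bulk libraries do not show whether these come from the same cells. Summed over a list, in CPM (counts per 1000000 normalized counts of the library), 9 enteroendocrine markers gave 91.5 to 185 in Tomatoneg, 209 to 420 in CD24negTomato+ and 537 to 1254 in CD24+Tomato+ libraries. In the same order, 7 goblet markers gave 5206 to 9032, 69375 to 102219 and 35983 to 47046, and 6 Paneth markers gave 1363 to 5871, 642 to 1579 and 20428 to 68726. All 9 enteroendocrine markers were higher in CD24+Tomato+ cells at an adjusted P under 0.05, and 0 of 9 passed in CD24negTomato+ cells by limma (5 with the replicate block, and 6 at an unadjusted P under 0.05), where 6 of 9 were above every Tomatoneg library. Of all genes tested, 14.7% were so in CD24negTomato+ cells. By limma, 0.999% of all genes passed as higher and 0.320% as lower in CD24negTomato+ cells (4.34% and 2.96% with the replicate block). In CD24+Tomato+ cells 8.02% passed as higher and 4.89% as lower. All 7 goblet markers were higher in both populations, and the 6 Paneth and 6 tuft markers were higher in CD24+Tomato+ cells, with 0 Paneth and 3 tuft markers lower in CD24negTomato+ cells (3 and 6 with the replicate block, and 4 and 6 at an unadjusted limma P under 0.05). Of 7 enterocyte markers, 4 were lower in CD24+Tomato+ cells (7 with the replicate block). Of 5 leukocyte markers, 4 were lower in CD24+Tomato+ cells and 2 in CD24negTomato+ cells (4 and 3 with the replicate block). They summed to 49.5 to 88.6 CPM in Tomatoneg and 4.36 to 9.21 in Tomato+ libraries, so the Tomatoneg libraries also held leukocyte transcripts. Of 5 stem cell markers, 1 was lower in CD24negTomato+ cells (3 with the replicate block) and 0 differed in CD24+Tomato+ cells (2 higher with the replicate block and 1 at an unadjusted limma P under 0.05). Markers of enteric neurons and glia, which also make granins, summed to 0.0520 to 1.74 CPM in all libraries, with Hand2 at 0 throughout and Sox10 at 0 in every Tomato+ library.

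Promoter sequences are shown because cAMP-responsive elements are well known at neuroendocrine promoters, and a link between a motif and expression was not tested. Sequences of RefSeq promoters (build GRCm38.p6, 250 bases before to 50 after each start site) were given for 9 of the 10 genes, in 10 windows, and Cpe was not among them. The palindromic element TGACGTCA occurred in the windows of Scg2, Chgb and Pcsk1, starting 68, 72 and 78 bases before the RefSeq start site. Chga carried the variant TGACGTAA, starting 44 bases before its RefSeq start site. The GENCODE gene models of Scg2 and Chgb begin further upstream (chr1:79440120 and chr2:132781278), so their stretches below lie inside those models. Of 32851 RefSeq promoter windows of the same length, 1.55% held TGACGTCA on either strand, 0.447% held TGACGTAA and 1.98% held at least 1 of them. The motifs were chosen after the sequences were seen, and a match is a description of the letters only. The stretches below are written 5′ to 3′ on the strand of the gene, with the element in capitals.
Scg2, chr1:79440076-79440105, minus strand: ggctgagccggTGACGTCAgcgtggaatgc
Chgb, chr2:132781559-132781588, plus strand: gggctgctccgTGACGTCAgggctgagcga
Pcsk1, chr13:75089768-75089797, plus strand: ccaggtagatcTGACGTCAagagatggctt
Chga, chr12:102554791-102554940, plus strand: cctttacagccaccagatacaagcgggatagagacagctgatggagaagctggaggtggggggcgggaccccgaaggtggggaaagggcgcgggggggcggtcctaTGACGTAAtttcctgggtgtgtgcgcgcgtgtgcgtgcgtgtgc

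Neither form of the element was in the windows of Scg3, Scg5, Pcsk1n, Pam or Pcsk2, so Pcsk2 was not alone in lacking it. The Pcsk2 window is shown beside that of Pcsk1 as the promoter of the other convertase. It held 7 matches to the GC box GGGCGG on either strand, of which those in the 150 bases before the start site are in capitals. At least 1 GC box was present in 32.7% of the RefSeq windows and 7 or more in 0.411%.
Pcsk2, chr2:143545983-143546132, plus strand: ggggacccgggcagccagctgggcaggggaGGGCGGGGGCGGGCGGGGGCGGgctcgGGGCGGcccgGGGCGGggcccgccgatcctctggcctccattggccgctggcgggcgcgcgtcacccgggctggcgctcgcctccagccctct

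All 10 genes were more abundant in every Tomato+ library than in every Tomatoneg library, for both CD24negTomato+ and CD24+Tomato+ cells. Groups that did not overlap in this direction made up 14.7% of all genes tested in the CD24negTomato+ table and 21.6% in the CD24+Tomato+ table. With limma across all genes, 7 of the 10 were higher in CD24negTomato+ cells at an adjusted P under 0.05, against a background of 0.999% of 13420 genes tested, and 10 of 10 were higher in CD24+Tomato+ cells, against 8.02% of 13874. With a fit blocked on the replicate number, 10 of 10 were higher in CD24negTomato+ cells, against 4.34% of the genes tested. The block changed no call among the 10 in CD24+Tomato+ cells. None of the 10 was lower in either comparison. Their median log2 fold change was 4.24 in CD24negTomato+ and 5.13 in CD24+Tomato+ cells, and the median of all genes tested was 0.08 and 0.16. Fold changes are on the log2(normalized count + 1) scale, and both comparisons use the same 3 Tomatoneg libraries. Pcsk2 had a mean under 10 in Tomatoneg cells (7.65 and 7.91 in the respective tables), so it entered the test through its Tomato+ libraries. Its place in these counts is therefore a description. The other 9 had a mean of at least 10 in Tomatoneg cells as well.

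**Figure D1:**
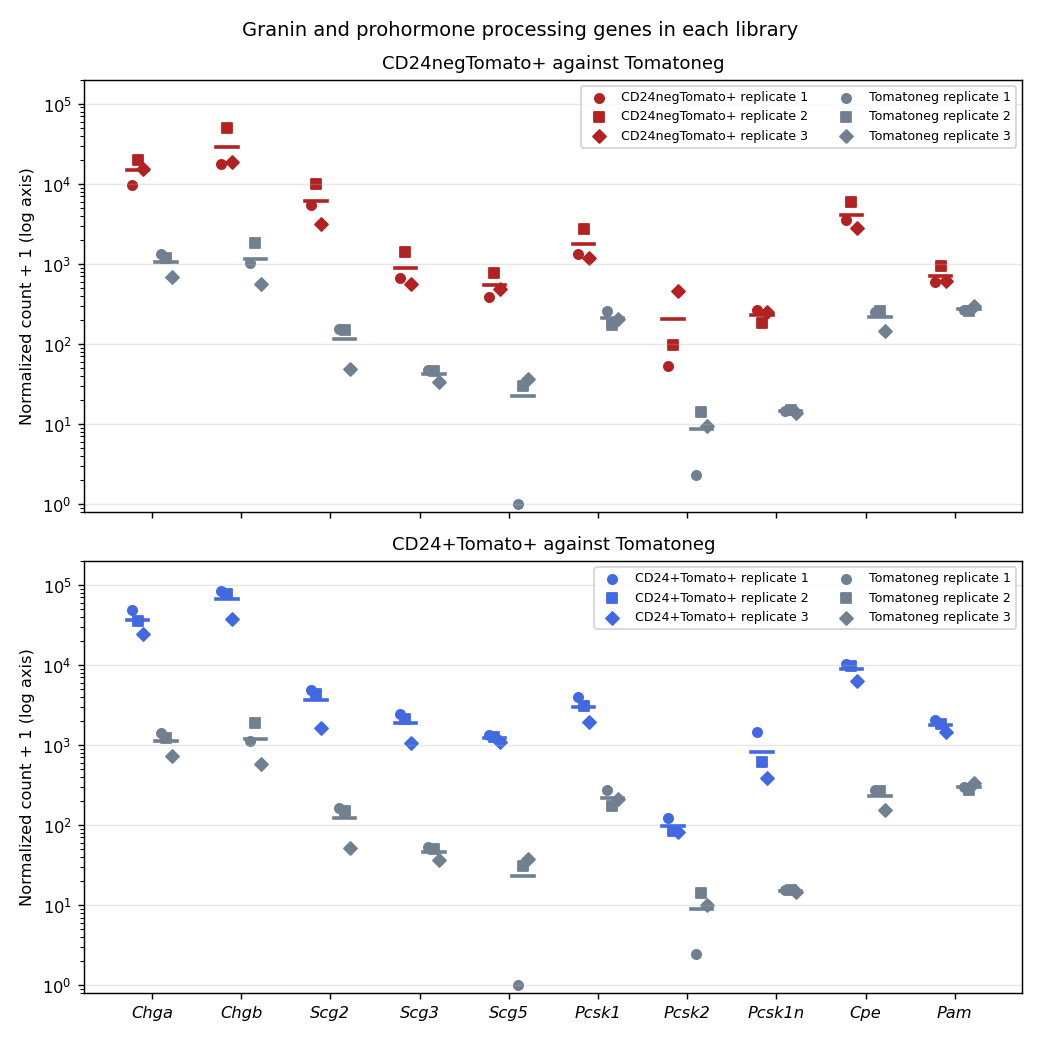
Normalized counts + 1 (log axis) of the 10 genes in each library, with the CD24negTomato+ table above and the CD24+Tomato+ table below. Points are libraries, shaped by replicate number, and short lines are means of 3. In both panels every colored point of a gene lies above its gray Tomatoneg points, and the Tomatoneg replicate 1 point of Scg5 sits at the bottom because that library is listed at 0.

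**Figure D2:**
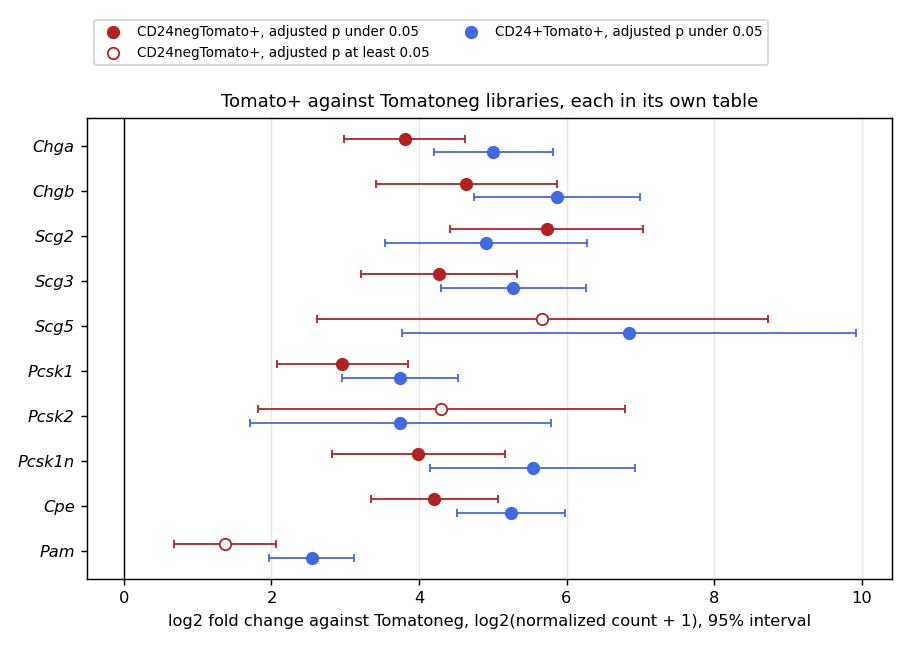
Log2 fold changes of the 10 genes against Tomatoneg cells with 95% intervals from limma, in CD24negTomato+ (red) and CD24+Tomato+ cells (blue). Filled points have an adjusted P under 0.05, and open points are Scg5, Pcsk2 and Pam in CD24negTomato+ cells. Pam had the smallest fold change of the 10 in both comparisons.

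Chgb and Chga, the chromogranins that make up much of the soluble granule matrix, had the highest counts of the 10 genes. Chga (chr12:102554969-102565028, 8 exons) gave normalized counts of 9808, 19769 and 15349 in replicates 1, 2 and 3 of CD24negTomato+ cells, with 1317, 1200 and 688 in Tomatoneg cells of the same table. In the other table it had 48208, 35419 and 24707 in CD24+Tomato+ cells and 1419, 1228 and 722 in Tomatoneg cells. The lowest Tomato+ library was thus well above the highest Tomatoneg library in both tables. The log2 fold change of Chga was 3.80 ± 0.35 (SE, n = 3 per population, adjusted P = 0.00602) in CD24negTomato+ and 5.01 ± 0.35 (adjusted P = 0.00104) in CD24+Tomato+ cells.

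Chgb (chr2:132781278-132795079, 5 exons) reached normalized counts of 17759, 49355 and 18660 in replicates 1, 2 and 3 of CD24negTomato+ cells, where Tomatoneg cells had 1028, 1820 and 559. It reached 84770, 76235 and 37616 in CD24+Tomato+ cells, where the same Tomatoneg libraries had 1107, 1861 and 586. Replicate 2 stood well above the other CD24negTomato+ libraries, replicate 3 was the lowest of the CD24+Tomato+ libraries, and no Tomato+ library overlapped the Tomatoneg range. The log2 fold change was 4.64 ± 0.53 (adjusted P = 0.0111) in CD24negTomato+ and 5.87 ± 0.48 (adjusted P = 0.00152) in CD24+Tomato+ cells. Chgb was above Chga in every Tomato+ library, and in Tomatoneg cells this held only for replicate 2. The Chga to Chgb ratio was 0.552, 0.401 and 0.823 in CD24negTomato+, 0.569, 0.465 and 0.657 in CD24+Tomato+ and 1.28, 0.659 and 1.23 in Tomatoneg libraries. The ratio in CD24+Tomato+ cells lay below that of every Tomatoneg library, and the ratios of the other pairs of populations overlapped. Taken by replicate number, each CD24negTomato+ ratio was also below that of its same-numbered Tomatoneg library. The permutation tests compared the populations without this pairing, and the paired differences were not tested. On the log2 scale the mean difference was -0.86 for CD24+Tomato+ against Tomatoneg cells (exact two-sided permutation P = 0.1, the smallest that 3 against 3 allows, adjusted P = 0.6 over 6 ratio comparisons). It was -0.84 for CD24negTomato+ against Tomatoneg cells (exact P = 0.2, adjusted P = 0.6) and 0.02 between the Tomato+ populations (exact P = 1).

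Secretogranin II (Scg2, chr1:79434669-79440120, 2 exons) is the precursor of secretoneurin. It was the granin with the largest fold change in CD24negTomato+ cells, with 5395, 9884 and 3152 normalized counts in replicates 1, 2 and 3 and 153, 147 and 48.3 in Tomatoneg cells (log2 fold change 5.73 ± 0.56, adjusted P = 0.00717). It had 4886, 4381 and 1642, with 165, 150 and 50.6 in Tomatoneg cells, in the CD24+Tomato+ table (4.91 ± 0.58, adjusted P = 0.00535). Replicate 3 was the lowest library of every population, and the groups did not overlap. Scg2 and Pcsk2 were the genes among the 10 whose fold change against Tomatoneg cells was not smaller in CD24negTomato+ than in CD24+Tomato+ cells. No test was made of that difference, as the comparisons share the Tomatoneg libraries and each table has its own scale.

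The make-up of the machinery within a library does not depend on library totals, and here Scg2 stood out. Of the summed normalized counts of the 10 genes, Scg2 took 13.6%, 10.8% and 7.24% in CD24negTomato+ replicates 1, 2 and 3, against 3.06%, 3.25% and 2.15% in CD24+Tomato+ libraries and 4.60%, 3.72% and 2.37% in Tomatoneg libraries. Every CD24negTomato+ share of Scg2 was above every share in the other populations. The Pcsk1 share (2.71% to 3.31%) and Pcsk2 share (0.106% to 1.06%) were also above every CD24+Tomato+ library (2.28% to 2.55% and 0.0619% to 0.105%). Neither was above every Tomatoneg library, and the shares were not tested. Set against Chgb alone, the Scg2 count was 0.304, 0.200 and 0.169 of the Chgb count in CD24negTomato+ libraries, 0.0576, 0.0575 and 0.0436 in CD24+Tomato+ libraries and 0.149, 0.0807 and 0.0864 in Tomatoneg libraries. This ratio was chosen after its values were seen and was given no test. For the same Tomatoneg library, the values of the 10 genes differed between the tables by a factor of 1.01 to 1.14. The factor could not be measured for the Tomato+ libraries, each of which is in 1 table.

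**Figure D3:**
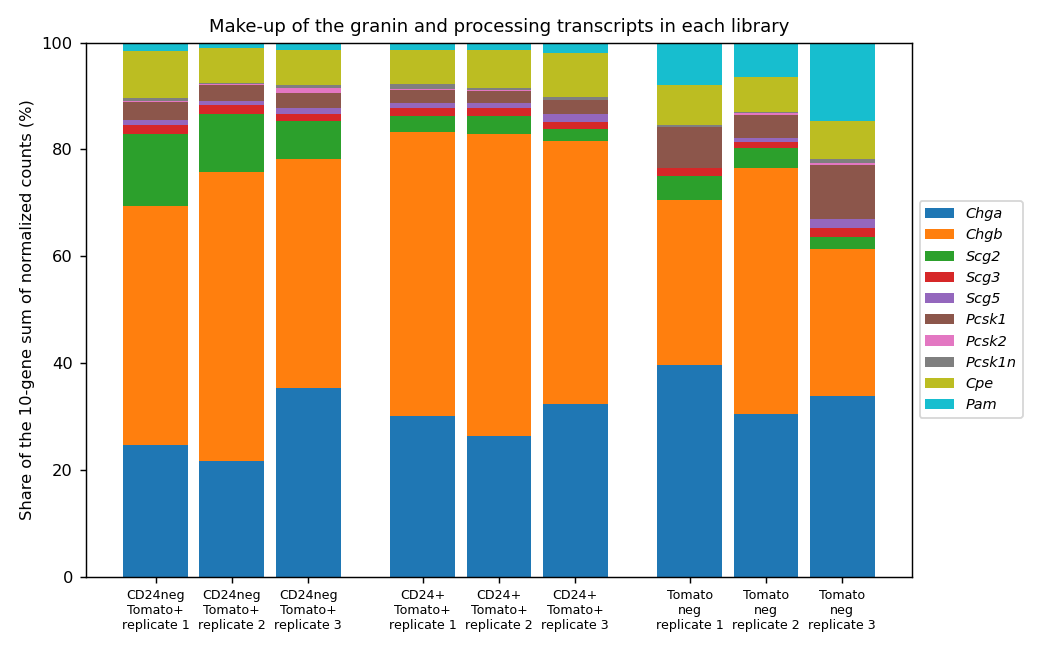
Share of each of the 10 genes in their summed normalized counts (%) in each of the 9 libraries, with CD24negTomato+ and CD24+Tomato+ libraries from their own tables and Tomatoneg libraries from the CD24negTomato+ table. Chga and Chgb together fill 61.3% to 83.2% of every bar, the Scg2 segment is widest in the CD24negTomato+ libraries, and the Pam segment is widest in the Tomatoneg libraries.

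Secretogranin III (Scg3, chr9:75643189-75684056, 12 exons), which binds chromogranin A and tethers granin aggregates to cholesterol-rich granule membrane, was expressed at a lower level. It had 675, 1399 and 558 normalized counts in CD24negTomato+ cells and 46.3, 45.4 and 32.3 in Tomatoneg cells (log2 fold change 4.28 ± 0.46, adjusted P = 0.00938). CD24+Tomato+ cells had 2470, 2137 and 1063, with 52.2, 48.7 and 35.4 in Tomatoneg cells (5.28 ± 0.42, adjusted P = 0.00139). Here too CD24negTomato+ replicate 2 was the highest of its group, CD24+Tomato+ replicate 3 was the lowest of its own, and the Tomatoneg libraries lay far below both.

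The neuroendocrine protein 7B2 (Scg5, chr2:113776362-113829121, 6 exons) escorts PC2 through the secretory pathway and keeps it inactive until it arrives. It had 384, 772 and 487 normalized counts in CD24negTomato+ cells and 1317, 1243 and 1078 in CD24+Tomato+ cells. In Tomatoneg replicates 1, 2 and 3 it was listed at 0, 29.2 and 35.1 in the CD24negTomato+ table and at 0, 29.9 and 36.8 in the other. The log2 fold change was 5.67 ± 1.31 (adjusted P = 0.0848) in CD24negTomato+ and 6.84 ± 1.32 (adjusted P = 0.0189) in CD24+Tomato+ cells, the widest errors among the 10 genes. Without the Tomatoneg library at 0 the log2 fold changes were 3.99 (adjusted P = 0.00942) and 5.15 (adjusted P = 0.00108). With the replicate block Scg5 was also higher in CD24negTomato+ cells (adjusted P = 0.0309). Over all alternatives the adjusted P of Scg5 ran from 0.00942 to 0.355 in CD24negTomato+ cells, and from 0.00108 to 0.0992 in CD24+Tomato+ cells, where leaving out any of the CD24+Tomato+ libraries took it past 0.05 (0.0743, 0.0992 and 0.0800 without replicates 1, 2 and 3).

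PC1/3, the convertase that releases GLP-1 from proglucagon in L cells, is encoded by Pcsk1 (chr13:75089826-75134861, 14 exons). Pcsk1 had 1315, 2758 and 1179 normalized counts in CD24negTomato+ cells and 256, 170 and 205 in Tomatoneg cells (log2 fold change 2.96 ± 0.38, adjusted P = 0.0164). The counts in CD24+Tomato+ cells were 4010, 3072 and 1946, with 272, 171 and 213 in Tomatoneg cells (3.74 ± 0.33, adjusted P = 0.00184). The groups were separate in both tables, and the Tomato+ libraries stood in the same order as for Scg2 and Scg3.

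PC2, the convertase that releases glucagon from proglucagon in pancreatic α cells, behaved otherwise. Pcsk2 (chr2:143546156-143816285, 12 exons) gave normalized counts of 52.2, 96.9 and 460 in CD24negTomato+ replicates 1, 2 and 3, against 1.33, 13.0 and 8.58 in Tomatoneg cells, of which the first is below the 3.99 that stands for 3 reads in that library. It had 122, 83.4 and 80.4 in CD24+Tomato+ cells, with 1.43, 13.3 and 8.99 in Tomatoneg cells. No Tomato+ library overlapped the Tomatoneg range, but a single CD24negTomato+ library held most of the Pcsk2 counts of its group. The log2 fold change was 4.30 ± 1.07 (adjusted P = 0.0986, and 0.0388 with the replicate block) in CD24negTomato+ and 3.75 ± 0.87 (adjusted P = 0.0332) in CD24+Tomato+ cells. In CD24negTomato+ cells it was 3.41 without replicate 3, and the adjusted P ranged from 0.0388 to 0.355 over all alternatives. The adjusted P in CD24+Tomato+ cells ranged from 0.00994 to 0.155 and passed 0.05 without CD24+Tomato+ replicate 1 (0.135), 2 (0.155) or 3 (0.114) or Tomatoneg replicate 3 (0.0513), and with a pseudocount of 0.1 (0.0607), with no filter (0.0557) or with a mean of at least 50 (0.0632). Antisense genes Pcsk2os1 and Pcsk2os2 overlap Pcsk2, and the strand setting of the counting is not given in the sources used here.

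In CD24negTomato+ replicate 3, in which Pcsk2 was highest, 5 of 14 prohormone genes were highest as well (Pyy, Ppy, Ins1, Ins2 and Iapp). Another 8 were highest in replicate 2 (Gcg, Gip, Cck, Sst, Ghrl, Nts, Sct and Tac1) and Penk in replicate 1, and 4 were lowest in replicate 3 (Cck, Sst, Ghrl and Sct). Hormones of the pancreatic islet thus stood on both sides: Gcg had 7252, 16867 and 15870 normalized counts, Ghrl 4696, 6107 and 3711 and Sst 209, 226 and 53.4. Across replicates 1, 2 and 3, Ppy (pancreatic polypeptide) had 176, 435 and 1827 normalized counts, Ins1 had 62.9, 234 and 2871, Ins2 had 269, 614 and 5471 and Iapp (amylin) had 53.3, 108 and 657. These 4, chosen after their values were seen, followed the order of Pcsk2. So did Pyy, which was likewise lowest in replicate 1 and highest in replicate 3. None of the other 9 genes of the machinery followed it. The order differed in CD24+Tomato+ cells: Pcsk2, Pyy and Iapp were highest in replicate 1 and Ppy, Ins1 and Ins2 in replicate 3. The 5 β cell markers, Iapp included, summed to 447, 133 and 138 CPM in CD24negTomato+ replicates 1, 2 and 3, and to 57.1 to 326 CPM in Tomatoneg libraries, so the list as a whole was highest in replicate 1. Most of that sum was Slc2a2, a glucose transporter that enterocytes also express, with 12561, 3505 and 3412 normalized counts. Mafa had 0, 4.46 and 19.3, G6pc2 had 4.21, 13.2 and 61.8 and Nkx6-1 had 14.2, 23.7 and 28.4. The 10 pancreatic acinar markers summed to 8.69, 5.73 and 16.5 CPM in these libraries and to 6.13 to 14.2 in Tomatoneg libraries, with Prss1 at 0 in every library. In CD24+Tomato+ replicates 1, 2 and 3 they summed to 31.6, 21.3 and 134. Attached pancreas was removed by dissection before sorting, and the part of pancreatic cells in these values was not tested.

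**Figure D4:**
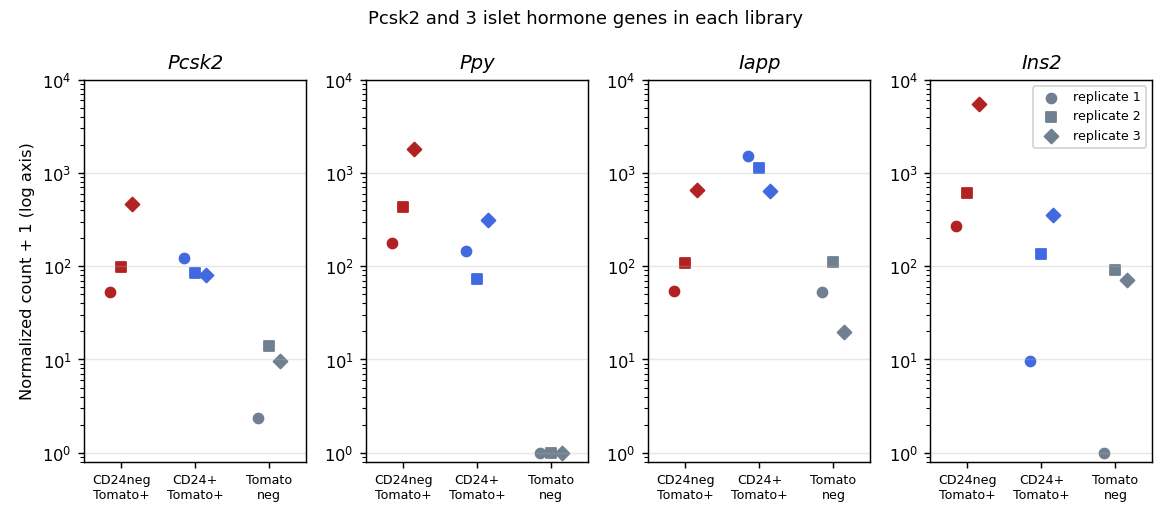
Normalized counts + 1 (log axis) of Pcsk2, Ppy, Iapp and Ins2 in each library of the 3 populations, shaped by replicate number, with Tomatoneg values from the CD24negTomato+ table. CD24negTomato+ replicate 3 (460 counts of Pcsk2) is the highest of its group in all 4 panels, and Ppy is listed at 0 in the Tomatoneg libraries.

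The balance of the convertases was lowest in CD24negTomato+ replicate 3 among the 9 libraries. The Pcsk1 to Pcsk2 ratio was 25.2, 28.5 and 2.56 in CD24negTomato+ replicates 1, 2 and 3, 32.9, 36.8 and 24.2 in CD24+Tomato+ cells and 192, 13.0 and 24.0 in Tomatoneg cells. Pcsk1 exceeded Pcsk2 in every library, and the ranges of the 3 populations overlapped. The mean log2 ratio was 3.60 ± 1.95 (SD, n = 3) in CD24negTomato+, 4.93 ± 0.31 in CD24+Tomato+ and 4.94 ± 1.65 in Tomatoneg cells. The difference between the Tomato+ populations was -1.33 (exact two-sided permutation P = 0.3, adjusted P = 0.6 over 6 ratio comparisons), and -0.39 without replicate 3 of each. Against Tomatoneg cells it was -1.34 for CD24negTomato+ (exact P = 0.6, adjusted P = 0.9) and -0.01 for CD24+Tomato+ cells (exact P = 1).

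Pcsk1n (chrX:7919822-7924410, 3 exons) encodes proSAAS, a granin-like protein that inhibits PC1/3. It had 264, 180 and 252 normalized counts in CD24negTomato+ cells and a narrow range of 13.4, 14.1 and 12.8 in Tomatoneg cells (log2 fold change 3.99 ± 0.50, adjusted P = 0.0162). CD24+Tomato+ libraries had 1457, 606 and 392, with 14.5, 14.4 and 13.5 in Tomatoneg cells (5.54 ± 0.59, adjusted P = 0.00351). Pcsk1n was the gene among the 10 that was lowest in CD24negTomato+ replicate 2, the library in which 8 of the others were highest. The protein-coding gene Eras overlaps it on the opposite strand.

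Cpe (chr8:64592542-64693054, 9 exons), which removes the basic residues that convertases leave at the C terminus, was the most abundant of the enzymes. It had 3498, 5975 and 2807 normalized counts in CD24negTomato+ cells and 249, 255 and 144 in Tomatoneg cells (log2 fold change 4.21 ± 0.37, adjusted P = 0.00571). Counts in CD24+Tomato+ cells were 10416, 9611 and 6345, with 275, 268 and 155 in Tomatoneg cells (5.25 ± 0.31, adjusted P = 0.00102). Cpe was well separated from Tomatoneg cells in each table and kept its call under every alternative tried, with adjusted P values of 0.00126 to 0.0499 in CD24negTomato+ cells and 4.57e-05 to 0.0175 in CD24+Tomato+ cells.

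Pam (chr1:97795114-98095646, 26 exons) encodes the enzyme that converts C-terminal glycine into an amide. It had 595, 933 and 619 normalized counts in CD24negTomato+ cells and 262, 254 and 300.2 in Tomatoneg cells (log2 fold change 1.37 ± 0.30, adjusted P = 0.0736, and 0.0401 with the replicate block). Over all alternatives this adjusted P ranged from 0.0401 to 0.355, and it was 0.0494 without Tomatoneg replicate 1. Pam had 2081, 1817 and 1439 in CD24+Tomato+ cells, with 298, 274 and 332 in Tomatoneg cells (2.55 ± 0.25, adjusted P = 0.00253). Tomatoneg cells held relatively more Pam than the other genes of the machinery: it made up 7.88%, 6.43% and 14.8% of the 10-gene sum there, against 1.50%, 1.02% and 1.42% in CD24negTomato+ and 1.30%, 1.35% and 1.89% in CD24+Tomato+ libraries. The Pcsk1 share in Tomatoneg libraries, at 7.70%, 4.30% and 10.1%, was also above that of every Tomato+ library. Several noncoding and pseudogene models overlap Pam.

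The order of libraries was shared by most of the genes. All 10 were highest in replicate 1 and lowest in replicate 3 of CD24+Tomato+ cells, and in CD24negTomato+ cells 8 of 10 were highest in replicate 2. Together the 10 genes took 0.141%, 0.332% and 0.143% of the normalized counts of CD24negTomato+ replicates 1, 2 and 3, 0.707%, 0.489% and 0.265% in CD24+Tomato+ and 0.0131%, 0.0169% and 0.00778% in Tomatoneg cells. The highest CD24negTomato+ library thus lay above the lowest CD24+Tomato+ library. Across the 9 libraries, on log2(CPM + 1), the 36 pairs among the 9 genes other than Pcsk2 had a Pearson r of 0.759 to 0.996 (median 0.949), and the 9 pairs with Pcsk2 had 0.585 to 0.769. These values describe 9 libraries in which Tomato+ and Tomatoneg cells form separate groups, and each r includes that separation. Taken as deviations from the population means, r was lower, at 0.22 to 0.98 (median 0.73) for the 36 pairs and -0.24 to 0.30 for the 9 pairs with Pcsk2. Among the 36, pairs with Scg5 had 0.22 to 0.70 and pairs with Pcsk1n 0.22 to 0.58.

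Over the same libraries, the profile of Resp18, a granule protein regulated in endocrine cells, was among the 3 most like that of Chga, Chgb and Cpe out of 8531 other genes with a mean of at least 10 CPM (Pearson r 0.996, 0.998 and 0.996 over 9 libraries). Prnp was among the 3 most like Scg3, Pcsk1 and Cpe (0.995, 0.987 and 0.991), and the ion channel gene Trpa1 (0.996 and 0.990) and Scrn1 (0.993 and 0.988) were among those most like Scg3 and Pcsk1. The first in order was Rab27a for Scg2 (0.990), Sstr5 for Scg5 (0.997), Ids for Pcsk1n (0.984) and Hmgn3 for Pam (0.987). For Pcsk2 it was Ppy, with a lower r of 0.926.

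Levels of different genes were compared per kilobase of the longest coding transcript, as CPM per kilobase. In CD24+Tomato+ cells the order was Chgb (952 ± 449, SD, n = 3), Chga (757 ± 345), Cpe (162 ± 56.9), Scg2 (57.3 ± 32.1), Scg5 (38.9 ± 8.74), Scg3 (31.3 ± 15.2), Pcsk1 (23.6 ± 11.0), Pam (16.9 ± 5.19), Pcsk1n (15.2 ± 12.4) and Pcsk2 (0.791 ± 0.304). The library ranges of neighbors overlapped in this order except between Chga and Cpe, between Cpe and Scg2, and between Pcsk1n and Pcsk2. In CD24negTomato+ cells the order was the same but for Scg2 (86.8 ± 51.8), which stood above Cpe (68.3 ± 30.8) with overlapping ranges, and Chgb was at 370 ± 248 and Pcsk2 at 1.45 ± 1.54. In Tomatoneg cells Chga (22.9 ± 7.73) came before Chgb (17.0 ± 10.5) with overlapping ranges, and Pam (2.65 ± 0.146) was the 4th of the 10, after Cpe (4.13 ± 1.35), whose range it overlapped. Taking the median length of coding transcripts instead put Pcsk1 5th in both Tomato+ populations, since its longest transcript is far longer than its median one.

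The rest of the pathway was read from 6 lists of other granin-like proteins, other convertases, other carboxypeptidases, amidation and N-terminal modification factors, granule acidification genes and prohormones, with 47 genes in all and 44 tested. In CD24negTomato+ cells 10 of 44 were higher and 0 lower (2 lower at an unadjusted limma P under 0.05), against 0.999% and 0.320% of all genes tested, and with the replicate block 19 were higher and 2 lower, against 4.34% and 2.96%. In CD24+Tomato+ cells 19 were higher and 2 lower, against 8.02% and 4.89%. Most of the genes that passed were granin-like proteins and prohormones.

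Of the 5 granin-like proteins, 5 were higher in CD24+Tomato+ and 2 in CD24negTomato+ cells (4 with the replicate block), with a median log2 fold change of 4.77 and 3.95. Ptprn2, a transmembrane protein of the granule known as phogrin, had 2112, 2959 and 1833 normalized counts in CD24negTomato+ against 305, 406 and 260 in Tomatoneg cells (log2 fold change 2.82 ± 0.29, adjusted P = 0.00910), and 8024, 6954 and 5065 in CD24+Tomato+ cells (4.29 ± 0.26, adjusted P = 0.00102). Resp18 had 394, 692 and 470 against 33.6, 52.8 and 17.9 (3.95 ± 0.52, adjusted P = 0.0164) and 1142, 1027 and 721 in CD24+Tomato+ cells (4.77 ± 0.50, adjusted P = 0.00318). Ptprn (IA-2) and the granin Vgf were listed at 0 in Tomatoneg replicate 1, like Scg5. They passed in CD24+Tomato+ cells (adjusted P = 0.0176 and 0.0237) and not in CD24negTomato+ cells (0.0736 and 0.125), where Ptprn passed with the replicate block (0.0265) and Vgf did not (0.0669).

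The other convertases act mostly in the constitutive route and are widely expressed. Of the 7, none was higher in either population (1 in CD24negTomato+ and 0 in CD24+Tomato+ cells at an unadjusted limma P under 0.05), and their median log2 fold change was -0.10 in CD24negTomato+ and -0.35 in CD24+Tomato+ cells. In CD24negTomato+ cells the largest was that of Pcsk7 (0.61 ± 0.20, adjusted P = 0.190). Pcsk5, which encodes PC5/6, was lower in CD24+Tomato+ cells, with 1256, 665 and 586 normalized counts against 4618, 2808 and 2233 in Tomatoneg cells (-1.96 ± 0.38, adjusted P = 0.0196). Among 3 carboxypeptidases tested, Cpn1 was higher in CD24+Tomato+ cells, with 634, 681 and 496 against 20.4, 51.1 and 97.9 (3.64 ± 0.60, adjusted P = 0.0120), and not in CD24negTomato+ cells (2.97 ± 0.60, adjusted P = 0.0631). All 3 passed with the replicate block in CD24negTomato+ cells, and 2 in CD24+Tomato+ cells.

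Qpct, which forms N-terminal pyroglutamate, passed in CD24+Tomato+ cells among the 5 genes of the amidation and N-terminal list. Its mean in Tomatoneg cells was under 10 (6.85 and 7.06 in the respective tables), so like Pcsk2 it entered the test through its Tomato+ libraries. It had 204, 299 and 233 normalized counts in CD24negTomato+ against 0, 15.2 and 5.35 in Tomatoneg cells (log2 fold change 5.70 ± 1.04, adjusted P = 0.0504, and 0.0248 with the replicate block). It had 531, 131 and 74.6 in CD24+Tomato+ cells (5.19 ± 1.24, adjusted P = 0.0355). With the replicate block Qpctl was also higher (1.41, adjusted P = 0.0251) and the copper transporter Slc31a1 lower (-0.76, adjusted P = 0.0231) in CD24+Tomato+ cells. The copper transporters and Cyb561, which supply PAM with its cofactors, did not pass in either comparison without the block. The vacuolar ATPase acidifies the granule. Of its 10 listed genes, none passed in CD24negTomato+ cells (2 were higher at an unadjusted limma P under 0.05, and 1 with the replicate block), where the largest log2 fold change was 1.11 ± 0.33 for Atp6ap2 (adjusted P = 0.151). In CD24+Tomato+ cells Atp6v1b2 was higher (1.01 ± 0.25, adjusted P = 0.0376) and Atp6v0a2 lower (-1.06 ± 0.22, adjusted P = 0.0230).

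Of 14 prohormones, the substrates of this machinery, 8 were higher in CD24negTomato+ cells (10 higher and 2 lower with the replicate block) and 11 in CD24+Tomato+ cells. Cck, the cholecystokinin precursor, had 36575, 46473 and 31803 normalized counts in CD24negTomato+ against 371, 1070 and 446 in Tomatoneg cells (log2 fold change 6.07 ± 0.40, adjusted P = 0.00281). Nts (neurotensin) had 23163, 71481 and 25302 against 676, 1321 and 365 (5.66 ± 0.57, adjusted P = 0.00788), with its highest value in replicate 2, as for Scg2. Sct (secretin) had 15934, 18521 and 14204 against 457, 940 and 451 (4.80 ± 0.32, adjusted P = 0.00281). In CD24+Tomato+ cells Ghrl (ghrelin) had 18320, 30053 and 22835 against 159, 348 and 235 (6.62 ± 0.33, adjusted P = 0.000774). Ppy was listed at 0 in all Tomatoneg libraries and passed in both comparisons (adjusted P = 0.0101 and 0.00555). It too entered the test only through its Tomato+ libraries, so its place in these counts, like that of Qpct, is a description.

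Gip and Sst, the hormones of K cells and D cells, were the prohormones with opposite signs in the Tomato+ populations. Gip had 164148, 174626 and 129277 normalized counts in CD24+Tomato+ against 2535, 3973 and 2667 in Tomatoneg cells (log2 fold change 5.69 ± 0.29, adjusted P = 0.000774), and 458, 2109 and 619 in CD24negTomato+ against 2345, 3870 and 2534 in Tomatoneg cells (-1.75 ± 0.55, adjusted P = 0.164, and 0.0304 with the replicate block). Sst had 59241, 62671 and 30735 in CD24+Tomato+ against 932, 1535 and 273 (6.05 ± 0.62, adjusted P = 0.00310), and 209, 226 and 53.4 in CD24negTomato+ against 862, 1495 and 259 (-2.34 ± 0.78, adjusted P = 0.187, and 0.0134 in the blocked fit). The granins and processing enzymes were above Tomatoneg levels in both populations. The 8 prohormones that passed in CD24negTomato+ cells were all among the 11 that passed in CD24+Tomato+ cells. A link between the machinery and single hormones was not tested.

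**Figure D5:**
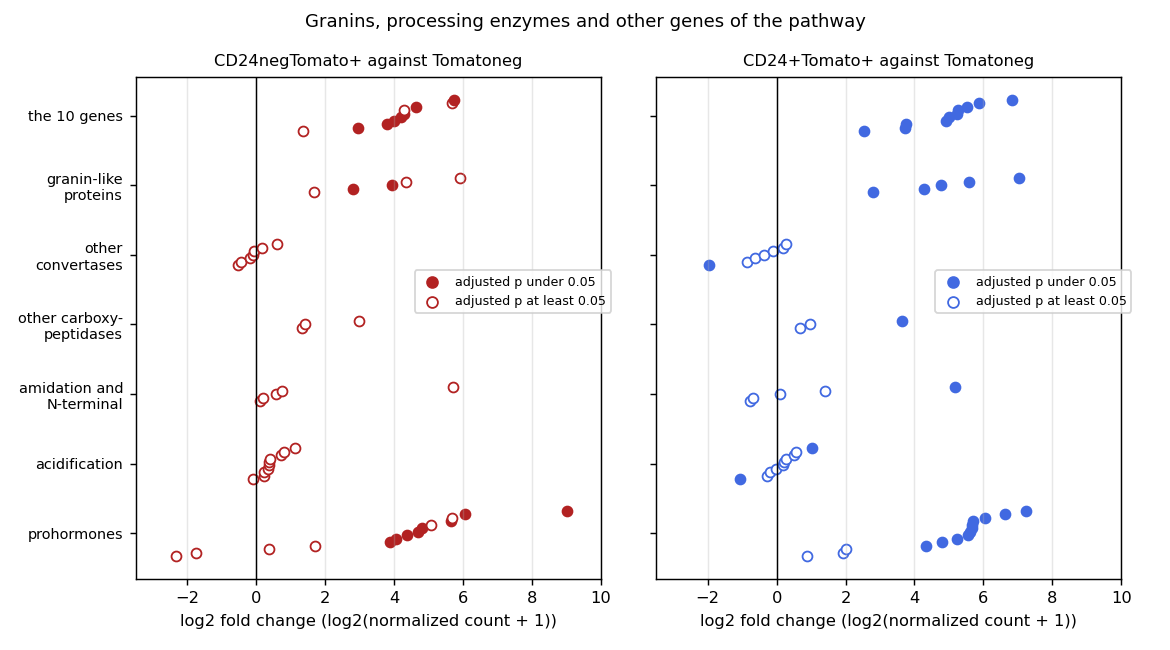
Log2 fold changes against Tomatoneg cells of the 10 genes and of the genes of the 6 pathway lists, in CD24negTomato+ (left) and CD24+Tomato+ cells (right). Each point is a gene, and filled points have an adjusted P under 0.05. The 10 genes and the granin-like proteins lie right of 0 in both panels, the other convertases and acidification genes lie between -0.54 and 1.11 on the left and between -1.96 (Pcsk5) and 1.01 on the right, and 2 prohormones (Gip and Sst) lie left of 0 in CD24negTomato+ cells.

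Leaving out single libraries changed calls in both comparisons. Without CD24negTomato+ replicate 1, 2 of the 10 genes passed (Chga and Cpe), without replicate 2 only Cpe did, and without replicate 3 there were 5, while the number of all genes called higher went from 134 to 18, 8 and 40. Without Tomatoneg replicate 1 it went to 535, and 9 of the 10 genes passed. Without CD24negTomato+ replicate 2, Chga was at an adjusted P of 0.0524 (0.00388 to 0.0524 over all alternatives). Chgb was at 0.0551 and 0.0524 without replicates 1 and 2 (range 0.000727 to 0.0551), Scg2 at 0.0544 and 0.0524 (range 0.000727 to 0.0544) and Scg3 at 0.0731 and 0.0968 (range 0.00520 to 0.0968). Without replicates 1, 2 and 3, Pcsk1 was at 0.0937, 0.0996 and 0.0562 (range 0.0119 to 0.0996, also 0.0510 without Tomatoneg replicate 2), and Pcsk1n at 0.165, 0.140 and 0.122 (range 0.00714 to 0.165). In these fits the log2 fold changes of the genes stayed between 1.16 and 6.58. Among CD24+Tomato+ calls, 8 genes passed without any one of the CD24+Tomato+ libraries, the exceptions being Scg5 and Pcsk2 each time, while the number of all genes called higher went from 1113 to 338, 107 and 237 without replicates 1, 2 and 3.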

How the data were processed

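Poly-A RNA-Seq libraries (Illumina TruSeq) were analyzed from 3 sorted populations with 3 replicates each. The deposited values are a signal: per the labels, the authors used bcl2fastq 2.19, kallisto 0.44.0, sleuth and DESeq2 with GRCm38, and gene counts were normalized within each of 2 tables of 6 libraries. The annotation and strand setting are not given in the sources used here. Both tables hold the Tomatoneg libraries, and the ratio of their values between tables differed from gene to gene (5th to 95th percentile 0.960 to 1.16), so tests were made only within a table. Values were not whole reads: 25.2% to 50.6% of low values (up to 20 reads) fell within 0.02 read of a whole multiple of the most common low value, which was taken as 1 read to estimate depth. No count test was therefore run.

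Genes whose mean normalized count over the 6 libraries reached 10 were tested with limma 3.58.1 (lmFit, eBayes with trend, R 4.3.3) on log2(normalized count + 1), with Benjamini-Hochberg adjustment over all genes tested and a threshold of 0.05. The fit was checked on simulated data. Ratios of 2 genes were compared by exact two-sided permutation tests, which did not use the replicate numbers. No library was left out. CPM is the share of a library sum, times 1000000. Positions and transcript lengths are from GENCODE M21 (GRCm38). Python 3.11.15 and matplotlib 3.10.9 were used for summaries and figures.

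The replicate numbers come from the labels, which do not say whether same-numbered libraries share mice or a sort. Deviations from the group means correlated at 0.302, 0.291 and 0.342 for same-numbered CD24negTomato+ and Tomatoneg libraries and at 0.283, 0.180 and 0.375 for CD24+Tomato+ and Tomatoneg libraries, and at -0.364 to -0.030 for different numbers. The numbers were taken to pair the libraries, and fits blocked on this number were an alternative.

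The 10 genes, the pathway lists and the marker lists were chosen with earlier results of these data known. Named from each pathway list were the genes past the threshold, up to 4 by absolute log2 fold change, or else the gene with the largest; for likeness, the genes among the 3 highest r for at least 2 of the 10 genes, and otherwise the first. Pyy, Ins1, Ins2 and Iapp beside Pcsk2, the single β cell markers and Slc31a1 and Qpctl were named after their values were seen. Alternatives were pseudocounts of 0.1 and 10, no filter or a mean of at least 50, equal library totals, quantile normalization, the replicate block, no variance trend and each library left out.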

Additional observations from a re-analysis of the deposited data

Results flagged for a closer look

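Among the 10 granin and processing genes and the named genes of the pathway lists, 4 were such that every CD24negTomato+ library differed from its same-numbered Tomatoneg library in one direction and every CD24+Tomato+ library in the other, and the difference between the comparisons was not tested, since they share the Tomatoneg libraries and the tables were scaled separately. The log2 fold change in CD24negTomato+ and CD24+Tomato+ cells was 0.16 and -1.96 for Pcsk5, 0.22 and -1.06 for Atp6v0a2, -2.34 and 6.05 for Sst and -1.75 and 5.69 for Gip. None of the 10 granin and processing genes was among the 4.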

How the results depend on the processing

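Over 14 alternatives in each comparison, the 280 refitted fold changes of the 10 genes kept their direction: 248 also kept their side of the threshold, 25 lost their call and 7 gained one. The number of the 10 genes past the threshold was 7 to 10 in CD24negTomato+ and 8 to 10 in CD24+Tomato+ cells over the settings that keep all libraries. With single libraries left out it was 1 to 9 in CD24negTomato+ and 8 to 10 in CD24+Tomato+ cells, and for the pathway lists 4 to 15 and 12 to 22. With the replicate block the pathway lists had 21 genes past the threshold in CD24negTomato+ cells in place of 10, and 25 in place of 21 in CD24+Tomato+ cells. The block gave Scg5, Pcsk2 and Pam a call in CD24negTomato+ cells and changed no other call among the 10 genes. The Chga to Chgb and Pcsk1 to Pcsk2 differences between Tomato+ populations were 0.02 and -1.33, and ran from -0.13 to 0.14 and from -1.81 to -0.39 with replicates left out. These shifts were smaller than the SD among CD24negTomato+ libraries (0.52 and 1.95), but the second value was -0.39 without replicate 3 of each population. The SD of 1.95 itself includes replicate 3 (log2 ratios of 4.63, 4.82 and 1.35 in replicates 1, 2 and 3). It therefore cannot show whether the second difference depends on that library.

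Among all genes in the CD24negTomato+ table, 134 were higher and 43 lower, against 582 and 397 with the block, 304 and 190 with quantile normalization, 314 and 101 with a pseudocount of 10, 93 and 19 with 0.1, 98 and 60 with equal totals, 126 and 28 with no filter and 196 and 95 with no variance trend. Of genes compared between CD24+Tomato+ and Tomatoneg cells, 1113 were higher and 678 lower, against 1504 and 1381 with the block, 991 and 1036 with quantile normalization, 1043 and 429 with no variance trend and 731 and 544 with a pseudocount of 0.1. Equal totals moved the median log2 fold change of all genes from 0.08 to -0.12 in the CD24negTomato+ table, and quantile normalization moved it from 0.16 to -0.02 in the other. The cause of these differences was not tested. Scg5 and Pcsk2 had 0 and 1.33 normalized counts in Tomatoneg replicate 1, where 3.99 stands for 3 reads. The estimated depth of that library was 19158348 reads, against 21435406 and 24243364 for Tomatoneg replicates 2 and 3. Without Tomatoneg replicate 1 the log2 fold changes in CD24negTomato+ cells were 3.99 for Scg5 and 3.53 for Pcsk2, in place of 5.67 and 4.30. The cause of the low values was not tested.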
